A study of Sus scrofa with 12 samples.

Results

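The transcripts of pig oocytes were compared between 22h and 46h of in vitro maturation, the later part of the culture, to describe across genes which transcripts were lost and which persisted or rose. The 4 libraries labelled 22h and the 4 labelled 46h entered the comparison, 8 of the 12 libraries of the series, and the 4 libraries of the start of culture (0h) served only as a reference level. A gene was kept where its 8 libraries averaged 1 FPKM or more (fragments scaled to the length of the transcript and the total of the library), which left 6641 of the 31908 gene identifiers listed. Both groups came from follicles of prepubertal gilts whose ovaries were collected at a slaughterhouse. The cumulus-oocyte complexes were cultured in the same medium with gonadotropins, epidermal growth factor and porcine follicular fluid, and the oocytes were stripped of cumulus cells before lysis, so the groups differed in culture time alone as far as the labels tell. Each library was a pool of oocytes drawn from pooled complexes, no strain is given, and nothing says that the pools of a stage came from separate animals or cultures, so the p-values measure the spread between these pools, which may be technical. The design text of the series gives the middle time point as 24h, whereas the sample labels give 22h, which is used here.

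A fully grown oocyte makes almost no new RNA. When it resumes meiosis it lives on transcripts stored during growth, which it translates, keeps silent or degrades in a set order until the embryo starts its own transcription. Much of this control acts on the poly(A) tail, since stored messages with short tails can be elongated through cytoplasmic polyadenylation elements in the 3′ untranslated region (UTR), while other messages lose their tails and are degraded. The cDNA of these libraries was started from an oligo-dT primer on the poly(A) tail, so a change in the measured level can reflect the amount of a transcript or the length of its tail, which cannot be told apart here. Over the hours compared, the study places the oocytes between the stage before the first metaphase and arrest at the second metaphase, but the nuclear stage of the oocytes in each pool is not given.

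The sample titles speak of ovarian cells and the labels give the cell type as oocyte, and the libraries were those of oocytes by their markers. All 13 oocyte markers with a name in the files reached 1 FPKM in some library, and together they summed to 38725 to 50158 FPKM at 22h and 41050 to 46560 FPKM at 46h. Of 27 named markers of cumulus and granulosa cells, which surround the oocyte, 11 were at 0 in all 8 libraries and 22 stayed under 1 FPKM, among them the gonadotropin receptors FSHR and LHCGR and the steroid-forming enzyme CYP11A1. The summed level of these markers was 58.6 to 90.5 FPKM at 22h and 120 to 146 FPKM at 46h, and most of it was VCAN, a matrix proteoglycan that rose from 47.4, 77.9, 59.7 and 74.9 FPKM to 133, 130, 105 and 136 FPKM. It was the only one of the 5 tested that rose, and SERPINE2, a protease inhibitor, was the only one that fell, from 2.08, 2.67, 1.84 and 1.66 FPKM to 0.46, 0.22, 0.21 and 0.45 FPKM (-1.19). The named blood and immune markers summed to 4.49 to 9.96 FPKM at 22h and 3.16 to 4.61 FPKM at 46h, with 4 of 9 at 0 throughout. LYZ, the only 1 tested, overlapped between the stages and did not pass (-0.27). CD3E, under the filter, went from 1.68, 0.62, 2.96 and 1.08 FPKM to 0.19, 0.09, 0 and 0 FPKM (exact two-sided permutation test, p = 0.0286). The markers of theca, stroma and endothelium summed to 19.2 to 41.3 FPKM and 22.0 to 24.3 FPKM, and of the 2 tested the actin-binding TAGLN fell from 12.6, 13.9, 21.6 and 12.3 FPKM to 0.46, 0.81, 0.72 and 0.17 FPKM. The other, the endothelial adhesion molecule PECAM1, was at 5.97, 17.1, 19.1 and 20.3 FPKM and then at 22.1, 21.0, 21.5 and 23.6 FPKM, apart between the stages, and did not pass as deposited (0.60, limma adjusted p = 0.125) but did after median-of-ratios scaling (0.93) and quantile normalization (1.07). In bulk samples fewer cells of a type and less RNA per cell cannot be told apart. Correlations of log2(FPKM + 1) across the genes tested were 0.959 to 0.984 between libraries of 22h, 0.981 to 0.988 within 46h and 0.840 to 0.894 between the stages, and replicate 1 of 22h had the lowest values within its stage. Read numbers per library are unknown. Total FPKM was 704433 to 773647 at 22h and 779556 to 802184 at 46h.

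Maturation from 22h to 46h left fewer transcripts holding more of the total. The number of genes at 1 FPKM or more was 6682 to 7135 at 22h and 5819 to 6076 at 46h, with no overlap between the stages. At 22h the 10 most abundant genes held 23.8% to 29.8% of the summed FPKM, against 35.1% to 37.3% at 46h, and it took 30 to 46 genes to reach 50% of the sum at 22h but 20 to 24 genes at 46h. The pool was thus more concentrated at 46h, and since FPKM is relative to each library, a rise of some transcripts and a loss of others are tied to each other in it. The 13 protein genes of the mitochondrial genome accounted for part of the shift, with 8.06% to 12% of total FPKM at 22h and 12.8% to 16.7% at 46h.

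Of the 6641 genes, 2873 (43.3%) passed the thresholds in limma's moderated test on log2(FPKM + 1), which were an adjusted p under 0.05 and a fold change over 1.5. Of these, 719 (10.8% of the genes tested) were higher at 46h and 2154 (32.4%) lower, so 25% of the calls were rises. This split depended on the scaling of the libraries. The share of rises was 19.3% when the values were rescaled to TPM, in which every library has the same total, 46.8% after median-of-ratios scaling and 59.6% after quantile normalization, because over all genes these move the median log2 fold change from -0.209 as deposited to -0.295, 0.0685 and 0.241. The results below therefore rest on the 1898 genes (28.6%) that passed in the same direction under all 4 scalings, of which 556 (8.37%) were higher and 1342 (20.2%) lower at 46h. In what follows rose and fell refer to these genes unless stated, fold changes are on the deposited log2(FPKM + 1) scale, and this scale understates the change of genes with few FPKM. The requirement is not symmetric, since the smallest change among the genes that passed under all 4 scalings was -0.95 for falls and 0.59 for rises on the log2 scale.

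**Figure D1:**
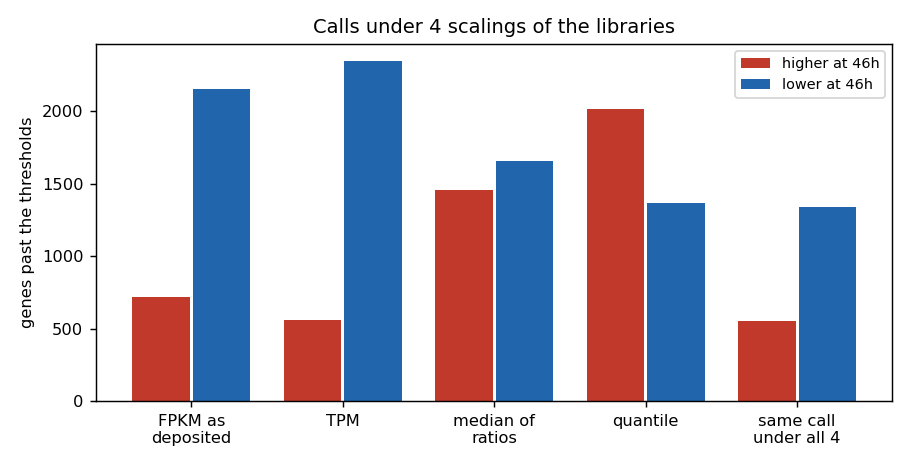
Number of genes past the thresholds at 46h against 22h (vertical axis) with the values as deposited, as TPM, after median-of-ratios scaling and after quantile normalization, and the number that passed in the same direction under all 4, in red for genes higher and in blue for genes lower at 46h. Falls outnumbered rises as deposited (2154 against 719), rises outnumbered falls with quantile normalization (2013 against 1365), and 1342 falls and 556 rises were common to the 4 scalings.

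Falls reached much further than rises. Of the genes that passed as deposited, 1473 were lower by more than 2-fold, 579 by more than 4-fold, 204 by more than 8-fold, 84 by more than 16-fold and 29 by more than 32-fold. Rises of more than 2-fold among them numbered 199, those of more than 4-fold 5 and those of more than 8-fold 2. Of the 3011 genes that averaged 10 FPKM or more at 22h, 66 had a mean under 1 FPKM at 46h. The genes that fell held 18.7% to 22.1% of total FPKM at 22h and 3.92% to 4.52% at 46h. Those that rose held 8.77% to 11.6% and then 17.3% to 19.6%. The direction of both shares follows from how these genes were chosen, so the shares describe only their size.

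**Figure D2:**
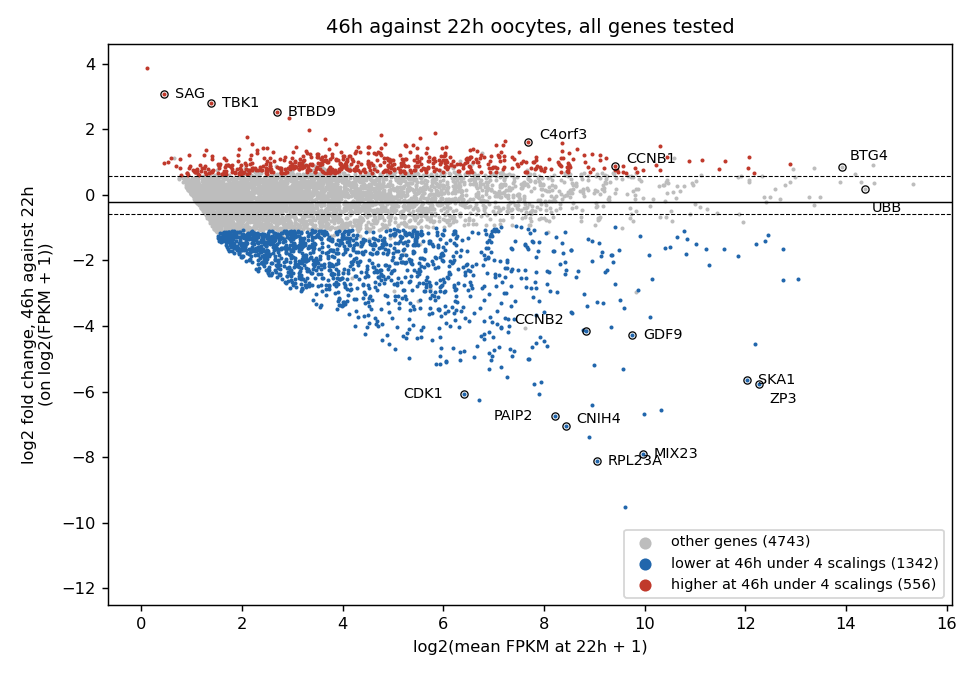
Log2 fold change at 46h against 22h (vertical axis) against the log2 of the mean level at 22h in FPKM + 1 (horizontal axis), with 1 point per gene tested. Genes lower under 4 scalings are blue (1342), genes higher under 4 scalings red (556) and other genes grey, the solid line is the median of all genes (-0.209) and the dashed lines mark 1.5-fold. Among genes with a name the falls extend to log2 fold changes of -8.12 for RPL23A and -7.89 for MIX23, while few rises exceed 2.

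Of all named genes that fell, RPL23A, a protein of the large ribosomal subunit, fell furthest. Its level was 717, 479, 504 and 422 FPKM in the libraries of 22h and 1.19, 0.38, 1.37 and 0.73 FPKM in those of 46h, a log2 fold change of -8.12 (SE 0.217, limma adjusted p = 3.54e-10). Ribosomal protein genes have many processed copies in mammalian genomes, and reads that such copies share may have been split, so single values of this family are less certain. MIX23, a protein of the mitochondrial intermembrane space, was at 1387, 1130, 791 and 693 FPKM and then at 3.28, 3.16, 2.37 and 3.57 FPKM (-7.89). CNIH4, which helps to export receptors from the endoplasmic reticulum, was at 513, 284, 289 and 295 FPKM and then at 0.94, 1.79, 2.19 and 1.37 FPKM (-7.05). PAIP2, which binds poly(A)-binding protein and represses translation, was at 265, 285, 323 and 315 FPKM and then at 2.35, 2.07, 1.78 and 1.13 FPKM (-6.73). Values at 22h and 46h were apart for each of these 4 genes. Other large falls were those of PDCD5 (-6.68), the ubiquitin ligase SIAH1 (-6.07), the myosin light chain MYL6 (-5.71), the superkiller complex subunit SKIC8 (-5.31), the lactate dehydrogenase LDHC (-5.30) and PARK7, a protein of oxidative stress responses (-5.20), beside genes described below. All 4 libraries of 46h lay under all 4 of 22h for each of them.

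A set of 10 genes was at 1 FPKM or more in every library of 22h and listed at 0 in every library of 46h, and 0 genes showed the reverse. The most abundant had no name, ENSSSCG00000015337, with 1200, 844, 508 and 582 FPKM at 22h. PET100, an assembly factor of cytochrome c oxidase, was at 40.9, 157, 20.4 and 10.2 FPKM, and TRAPPC5, a subunit of a vesicle tethering complex, at 3.04, 4.47, 4.66 and 3.83 FPKM. No fold change is given for these genes, because a value of 0 in a table without counts has no known floor.

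Rises were smaller, and the largest among named genes started from low levels. SAG encodes the arrestin of rod photoreceptors, and it was at 0, 1.18, 0.32 and 0 FPKM at 22h and at 13.1, 8.67, 10.3 and 8.22 FPKM at 46h, with a log2 fold change of 3.07 (SE 0.251, limma adjusted p = 1.51e-06). TBK1, a kinase of innate immunity and selective autophagy, was at 0.32, 0.86, 1.40 and 3.91 FPKM and then at 12.8, 13.3, 16.9 and 18.0 FPKM (2.80). BTBD9 was at 2.77, 12.2, 5.12 and 1.81 FPKM and then at 31.0, 32.6, 18.4 and 45.3 FPKM (2.53). These 3 genes did not overlap between the stages, whereas CCDC81 (2.33), with 18.1 FPKM in replicate 1 of 22h and 13.3 FPKM in replicate 1 of 46h, overlapped. Abundant transcripts were also among the rises. C4orf3, a small membrane protein, went from 165, 216, 203 and 239 FPKM to 561, 674, 610 and 654 FPKM (1.61), CYB5A, the electron carrier cytochrome b5, from 104, 132, 132 and 156 FPKM to 335, 367, 382 and 423 FPKM (1.53), and DCLRE1A, a nuclease of crosslink repair, from 125, 149, 144 and 163 FPKM to 396, 395, 417 and 448 FPKM (1.51). Each library of 46h lay above each of 22h for these 3 genes. Among the other named genes with the largest rises were the gamma-secretase subunit APH1B (1.97), the endosomal syntaxin STX7 (1.88), the histone acetyltransferase subunit ING3 (1.83), the checkpoint clamp subunit RAD1 (1.72), the tRNA dihydrouridine synthase DUS4L (1.56), the Golgi protein TMEM115 (1.54), ICA1 (1.53) and the metal transporter SLC39A8 (1.52).

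A gene was counted as held where the whole 95% confidence interval of its fold change lay inside 1.5-fold either way, since a missed threshold does not show that a level persisted. As deposited, 1362 genes (20.5%) were held and 2406 (36.2%) were neither past the thresholds nor held. Held genes made up 14.3% to 14.9% of the summed FPKM at 22h and 13.1% to 14.6% at 46h. Being held depended on the scaling more than being called did, as 436 of the 1362 were also held after median-of-ratios scaling, 104 after quantile normalization and 6 under all 4 scalings. The 6 genes were ARMC1, PCBD1, OSBPL9, CLINT1, RGS22 and TXNL1. The most abundant of them, ARMC1, was at 1582, 1509, 1704 and 1481 FPKM at 22h and at 1427, 1660, 1447 and 1323 FPKM at 46h, and the stages overlapped. Of the 3011 genes at 10 FPKM or more at 22h, 474 (15.7%) were held. The share among low genes rests on the pseudocount, and with a pseudocount of 0.1 738 of all 6641 genes were held.

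The genes were next read in 50 lists of pathways, complexes and cell type markers, which hold 1152 of the genes tested. No test of a list was made, and each count is to be read beside the share of all genes that rose (8.37%) or fell (20.2%). Counts given as deposited are to be read beside 10.8% higher, 32.4% lower and 20.5% held, and each median beside that of all genes (-0.209). Among lists with more than 5 genes tested, those with the lowest medians were the proteins of the small (-2.14) and large (-1.97) cytosolic ribosomal subunit, nuclear-encoded complex I (-2.12), the zona pellucida and sperm-binding proteins (-1.61), the oocyte markers (-1.37) and the mitochondrial ribosome (-1.36). The mitochondrially encoded proteins (0.79), the cohesin and shugoshin list (0.28), the deubiquitinases (0.20) and the cAMP and protein kinase A list (0.17) had the highest. The cumulus and granulosa markers, with 5 genes tested, lie outside this ranking and had a median of 0.30. Relative to all genes, the median of the mitochondrially encoded proteins was 1.0 as deposited but 0.23 after quantile normalization, under the cohesin and shugoshin list (0.46) and the deubiquitinases (0.45) on that scale. Of the 48 lists with at least 5 genes tested, 27 had a median under that of all genes as deposited, 27 as TPM, 26 after median-of-ratios scaling and 29 after quantile normalization.

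**Figure D3:**
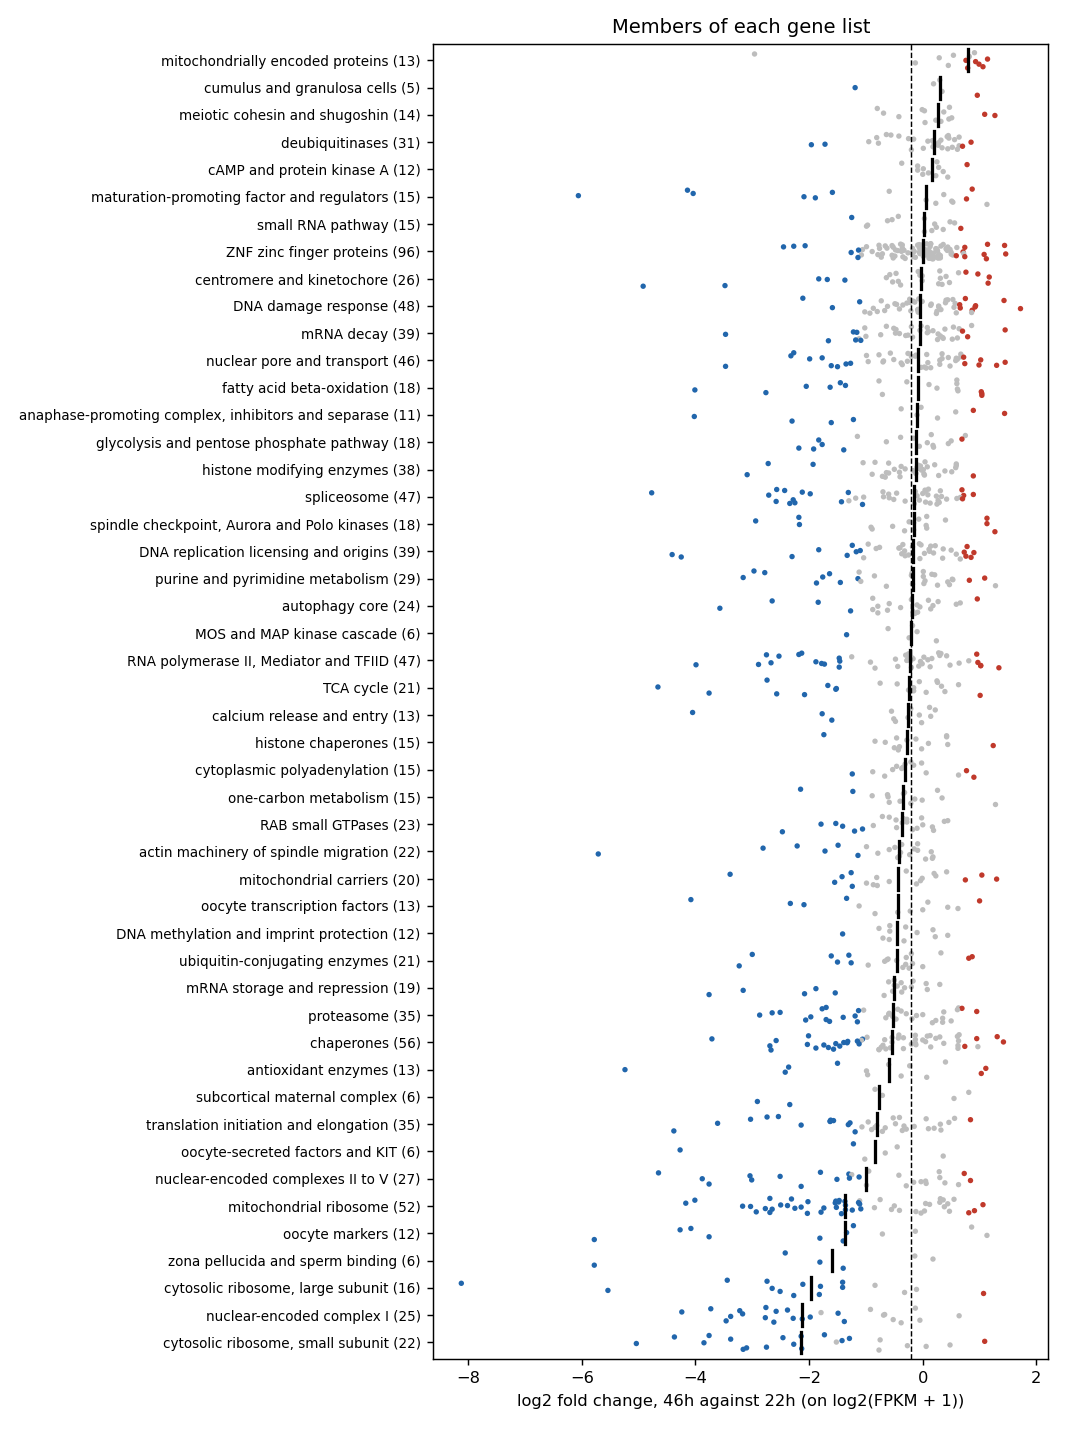
Log2 fold change at 46h against 22h (horizontal axis) of the members of each gene list (rows, with the number tested in parentheses), with 1 point per gene in blue for genes lower and red for genes higher under 4 scalings and grey for other genes. Black bars are list medians and the dashed line is the median of all genes (-0.209), and the medians run from -2.14 for the small ribosomal subunit to 0.79 for the mitochondrially encoded proteins.

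The kinase that drives meiotic division, maturation-promoting factor, is made of the catalytic subunit CDK1 and a B-type cyclin, and the transcripts of its parts moved apart. CDK1 (ENSSSCG00000010214, chr14:64233945-64255290, positions in Sscrofa11.1) was at 83.1, 103, 70.2 and 82.5 FPKM at 22h and at 0.24, 0.32, 0.22 and 0.32 FPKM at 46h, so every library of 46h lay under 1 FPKM. Its log2 fold change was -6.06 (SE 0.154, limma adjusted p = 3.03e-10). CCNB1, cyclin B1 (ENSSSCG00000029326, chr16:47338239-47348385), was at 373, 763, 727 and 855 FPKM and then at 1081, 1185, 1183 and 1323 FPKM, and the stages did not overlap. It rose by a log2 fold change of 0.87 (SE 0.234, limma adjusted p = 0.0084). CCNB2, cyclin B2 (ENSSSCG00000004588, chr1:112907047-112942218), was at 323, 436, 515 and 556 FPKM and then at 21.6, 26.6, 21.9 and 28.9 FPKM, with a log2 fold change of -4.14. Of the 15 genes tested of this factor and its regulators, 2 rose and 6 fell. The other rise was MASTL (0.77), the kinase that restrains the opposing phosphatase, whereas its substrate ENSA fell (-1.89). The activating phosphatase CDC25B went from 39.6, 16.8, 18.7 and 10.6 FPKM to 0.35, 0.17, 0.11 and 0.29 FPKM (-4.04), and the CDK1-binding subunit CKS2 fell as well (-2.09). WEE2, the oocyte kinase that inhibits CDK1, was at 491, 1119, 2171 and 2316 FPKM and then at 1888, 3085, 3518 and 3070 FPKM (1.13), and its stages overlapped. It passed as deposited (limma adjusted p = 0.0428) but not under all 4 scalings, and the call was lost without replicate 1 (0.66) or 2 (1.06) of 22h and without replicate 2 (1.08), 3 (1.02) or 4 (1.09) of 46h.

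The anaphase-promoting complex degrades the cyclins and releases the sister chromatids, and 11 genes of it, its inhibitors and separase were tested. ANAPC15 (0.89) and CDC16 (1.44), subunits of the complex, rose. CDC26, a small subunit, fell from 75.5, 39.3, 40.3 and 33.7 FPKM to 1.74, 1.47, 1.99 and 2.14 FPKM (-4.02). FBXO5, the inhibitor EMI1, fell from 318, 645, 671 and 814 FPKM to 133, 155, 74.9 and 119 FPKM (-2.30), and the ubiquitin-conjugating enzyme UBE2C (-1.61) and separase, ESPL1 (-1.22), also fell. All 6 genes, the members of this list that passed under all 4 scalings, were apart between the stages. Among all 6641 genes the stages were likewise apart for 930 that were higher and 2254 that were lower at 46h.

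Both shugoshins, which protect centromeric cohesion between the meiotic divisions, rose. SGO1 went from 30.4, 35.8, 26.1 and 25.1 FPKM to 71.9, 59.4, 54.4 and 67.6 FPKM (1.09), and SGO2 from 44.0, 76.3, 72.8 and 64.8 FPKM to 150, 185, 120 and 165 FPKM (1.27). The libraries of 46h lay above those of 22h for both. None of the other 12 genes of the cohesin list tested passed under all 4 scalings. As deposited 2 of them were lower and 4 held, beside 32.4% and 20.5% of all genes. Of the 18 genes of the spindle checkpoint with the Aurora and Polo kinases, 3 rose and 3 fell. As deposited 3 were higher, 5 lower and 6 held, beside 10.8%, 32.4% and 20.5% of all genes. The rises were MAD2L1 (1.13), the checkpoint protein MAD2, BORA (1.13), which helps to activate Polo kinase, and ZWILCH (1.27) of the kinetochore complex that recruits MAD2. BUB3, their partner at kinetochores, fell from 41.8, 50.7, 51.2 and 51.0 FPKM to 5.86, 5.16, 4.77 and 6.12 FPKM (-2.94), and BIRC5, the survivin subunit of the Aurora B complex, fell too (-2.18). Aurora B itself, AURKB, was held as deposited (0.07), at 39.6, 55.5, 68.2 and 62.9 FPKM and 49.9, 56.2, 74.8 and 54.7 FPKM, but not under all 4 scalings, with 0.42 after median-of-ratios scaling and 0.44 after quantile normalization.

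Subunits of the NDC80 kinetochore complex went in opposite directions, whereas those of the SKA complex were all lower at 46h. The NDC80 complex, which binds microtubules, has 4 subunits. NDC80 itself rose from 119, 184, 161 and 188 FPKM to 331, 368, 330 and 406 FPKM (1.15, SE 0.172, limma adjusted p = 0.000182). Its partner NUF2 was at 117, 159, 127 and 158 FPKM and then at 181, 190, 155 and 179 FPKM, overlapped between the stages and did not pass as deposited (0.34, limma adjusted p = 0.0872), but was 0.55 after quantile normalization and passed after median-of-ratios scaling (0.70). The other 2 subunits, which anchor the complex to the kinetochore, both fell. SPC24 went from 62.4, 13.9, 51.5 and 39.3 FPKM to 1.82, 1.88, 3.04 and 2.89 FPKM (-3.48), and SPC25 from 177, 194, 134 and 151 FPKM to 5.78, 3.74, 3.27 and 5.16 FPKM (-4.92). The SKA complex stabilises the same attachments, and SKA1 was among the most abundant transcripts to fall, from 4552, 4539, 3676 and 3968 FPKM to 85.1, 87.6, 65.4 and 90.2 FPKM (-5.66, SE 0.153, limma adjusted p = 3.54e-10). SKA2 fell from 64.5, 45.5, 38 and 35.1 FPKM to 12.4, 9.64, 7.21 and 8.19 FPKM (-2.16). The third subunit, SKA3, was under the filter, with 0.78, 0.35, 0.70 and 0.37 FPKM and then 0.05, 0.04, 0.10 and 0.02 FPKM (exact two-sided permutation test, p = 0.0286, the smallest that 4 against 4 libraries allow). In the list of 26 centromere and kinetochore genes tested, which does not hold SKA1, 4 rose and 5 fell.

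**Figure D4:**
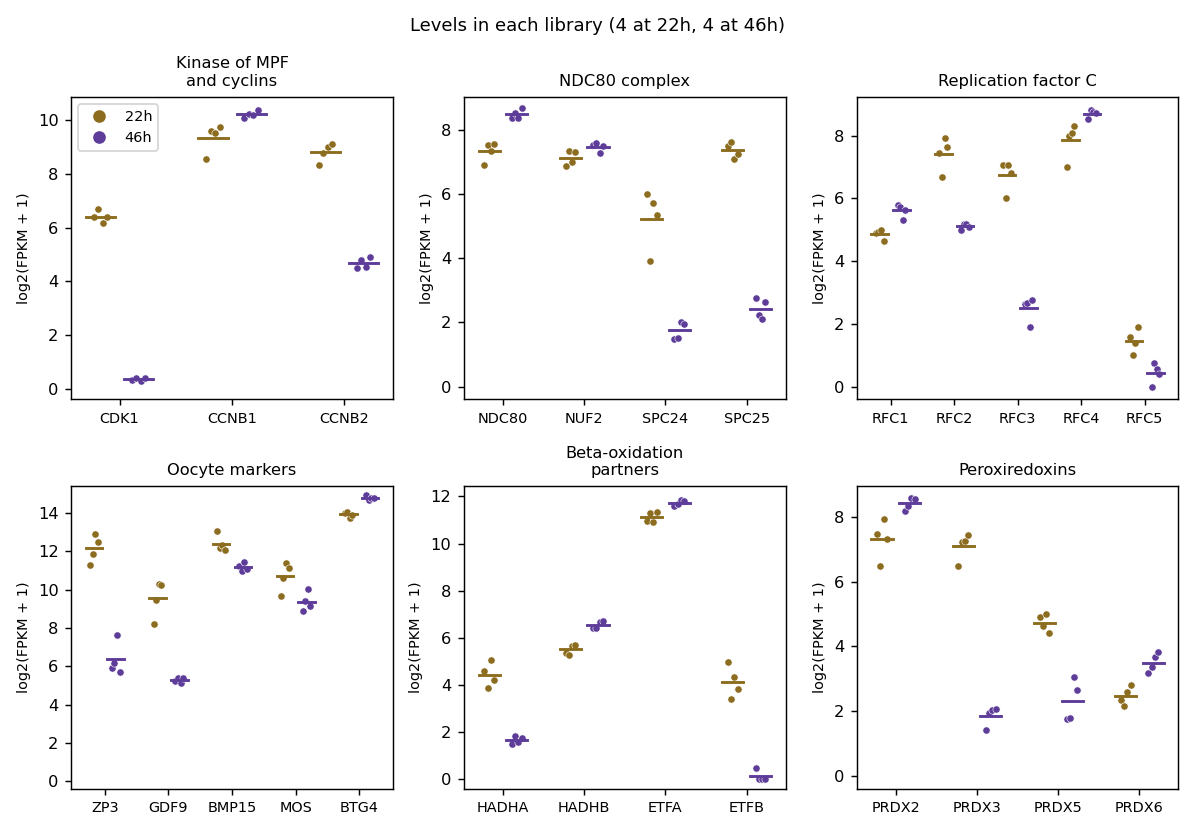
Level of selected genes as log2(FPKM + 1) (vertical axes) in each of the 4 libraries of 22h (brown) and the 4 of 46h (purple), with horizontal bars at the means, in 6 panels for maturation-promoting factor, the NDC80 complex, replication factor C, oocyte markers, enzymes of beta-oxidation and peroxiredoxins. CCNB1 rises while CDK1 falls under 1 FPKM, and NDC80 rises while SPC24 and SPC25 fall.

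Several transcripts of the egg coat and of secreted oocyte factors fell. ZP3, a protein of the zona pellucida, was at 2502, 3747, 7741 and 5807 FPKM at 22h and at 59.5, 71.7, 199 and 51.5 FPKM at 46h (-5.78, SE 0.429, limma adjusted p = 6.96e-07). ZP2 (-1.81), ZP4 (-1.40) and ASTL (-2.42), the protease that trims the zona after fertilization, also fell, so 4 of the 6 genes tested of this list fell and 0 rose. Even so ZP4 stayed abundant, with 1659, 1364, 3523 and 1912 FPKM at 46h after 3668, 4718, 6747 and 6363 FPKM at 22h. GDF9, a growth factor by which the oocyte directs the cumulus cells, fell from 289, 690, 1260 and 1223 FPKM to 36.1, 40.6, 33.3 and 41.0 FPKM (-4.27). BMP15, its partner, fell less, from 8534, 4534, 5087 and 4303 FPKM to 2418, 1980, 2793 and 2127 FPKM (-1.22), and these were the 2 of 6 genes tested of oocyte-secreted factors and the receptor KIT that fell, with 0 that rose. The stages did not overlap for any of these genes. MOS, the kinase upstream of the MAP kinase pathway that holds the oocyte at the second metaphase, was at 822, 1573, 2721 and 2208 FPKM and then at 465, 681, 1060 and 564 FPKM (-1.34), and its stages overlapped. FIGLA, the transcription factor that switches on zona genes, fell from 41.4, 40.4, 45.6 and 27.6 FPKM to 1.8, 1.38, 1.04 and 1.11 FPKM (-4.08), and KLF5 fell as well (-2.33), whereas the forkhead factor FOXR1 rose from 353, 482, 499 and 457 FPKM to 769, 733, 1334 and 842 FPKM (1.0), the only rise beside 4 falls among the 13 genes tested in a list of oocyte transcription factors and other oocyte genes. OOEP (-2.91) and PADI6 (-2.34), members of the subcortical maternal complex that the embryo needs for its first divisions, were the 2 of 6 genes tested that fell, and 0 rose. NLRP9, the most abundant of that list at 46h, was at 443, 704, 1306 and 936 FPKM and then at 806, 1415, 1131 and 1349 FPKM (0.55), with overlap, and did not pass as deposited but did after median-of-ratios scaling (0.90) and without replicate 3 of 22h (0.79). Of 12 oocyte markers tested, 8 fell and 0 rose under all 4 scalings, while the summed level of the markers at 46h lay within its range at 22h. BTG4 alone averaged 15605 of a summed 44262 FPKM at 22h and 28330 of 42789 FPKM at 46h.

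BTG4 recruits the deadenylase that shortens the tails of maternal transcripts, and it was the most abundant oocyte marker. It was at 16544, 16872, 13761 and 15243 FPKM at 22h and at 30934, 26454, 28036 and 27896 FPKM at 46h, with no overlap. The rise of 0.86 (SE 0.123, limma adjusted p = 0.000127) passed as deposited but was 0.37 with quantile normalization and did not pass there. CNOT7, a catalytic subunit of that deadenylase, was higher as deposited (0.64) but did not pass under all 4 scalings, nor without replicate 1 of 22h (0.49). Its log2 fold change was larger after median-of-ratios scaling (0.99) and quantile normalization (0.92). Of 39 genes of transcript decay tested, 3 rose and 6 fell. DCP1A, an activator of decapping, rose from 7.87, 16.1, 25.1 and 25.8 FPKM to 35.7, 49.1, 53.0 and 59.1 FPKM (1.45). The exosome subunit EXOSC8 fell (-3.47), as did ZFP36L2, which destabilises transcripts with AU-rich elements (-1.66). Among 19 genes of transcript storage and repression tested, 0 rose and 5 fell. ZAR1, which keeps maternal transcripts in store, fell from 41.3, 12.4, 20.9 and 20.8 FPKM to 0.50, 1.16, 0.51 and 0.64 FPKM (-3.76), and RBPMS2 fell from 38.4, 10.4, 5.13 and 3.03 FPKM to 0.12, 0.23, 0.20 and 0.05 FPKM (-3.16). Of the 15 genes of cytoplasmic polyadenylation tested, the poly(A) polymerase PAPOLA (0.77) and the cleavage factor subunit WDR33 (0.90) rose. PUM2, an RNA-binding repressor, fell (-1.24). As deposited 3 of the 15 were higher and 3 lower, beside 10.8% and 32.4% of all genes.

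Among the genes tested, transcripts for the machinery of translation fell broadly. In the small ribosomal subunit 15 of 22 genes tested fell and 1 rose, and in the large subunit 12 of 16 fell and 1 rose, beside 20.2% and 8.37% of all genes. Names were matched for 26 of the 33 listed genes of the small subunit and for 21 of the 47 of the large. The genes without a matched name have no value here. RPS25 went from 103, 80.4, 69.9 and 64.6 FPKM to 1.24, 0.80, 1.78 and 2.0 FPKM (-5.04), RPS12 from 72.8, 33.0, 41.8 and 27.1 FPKM to 0.69, 1.32, 1.97 and 0.42 FPKM (-4.37), and RPL6 from 188, 100, 172 and 154 FPKM to 3.04, 1.18, 2.09 and 2.97 FPKM (-5.54). The rises were RPLP0, the base of the ribosomal stalk, from 158, 138, 156 and 136 FPKM to 354, 326, 374 and 211 FPKM (1.07), and RPS20, from 5.63, 2.44, 13.3 and 9.97 FPKM to 14.5, 14.0, 15.9 and 17.4 FPKM (1.09). The call of RPS20 was lost without replicate 1 of 22h (1.01) and without replicate 3 (1.07) or 4 (1.03) of 46h. These 5 genes were apart between the stages and are subject to the same doubt about shared reads as RPL23A. Of 35 initiation and elongation factors tested, 13 fell and 1 rose. EIF6, which keeps ribosomal subunits apart, fell from 131, 40.9, 156 and 114 FPKM to 3.52, 4.62, 4.54 and 2.78 FPKM (-4.38), and EIF3H (-3.61) and EIF3M (-2.14), subunits of initiation factor eIF3, fell too. The rise was EIF2A (0.84), which can deliver the initiator tRNA.

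The respiratory chain is encoded by 2 genomes, and the medians of their gene lists lay on opposite sides of that of all genes under all 4 scalings. Of the 13 protein genes of the mitochondrial genome, 6 rose and 0 fell under all 4 scalings. As deposited 8 were higher and 5 neither passed nor were held. CYTB was at 5537, 3525, 3568 and 4699 FPKM at 22h and at 9339, 9623, 7494 and 11456 FPKM at 46h (1.14, SE 0.185, limma adjusted p = 0.000333), and ND5 was at 2781, 1859, 2118 and 2329 FPKM and then at 4757, 5252, 3621 and 5319 FPKM (1.06). Neither gene overlapped between the stages. ND4 (0.99), ND2 (0.93), ND6 (0.79) and ND1 (0.76), which with ND5 encode subunits of complex I, rose as well, and ND6 overlapped between the stages. ATP6 (0.91) and COX2 (0.82) passed as deposited but not under all 4 scalings. ATP8 was listed at 0 in 7 of the 8 libraries and at 3628 FPKM in replicate 2 of 22h. In contrast, of 25 nuclear genes of complex I tested, 0 rose and 16 fell, with a median of -2.12. NDUFAB1 went from 28, 26.0, 12.8 and 16.2 FPKM to 0.12, 0, 0.07 and 0.22 FPKM (-4.24), and NDUFA5 from 17.2, 10.5, 24.0 and 23.6 FPKM to 0.55, 0.42, 0.28 and 0.48 FPKM (-3.73). NDUFB5, the most abundant of them, was lower as deposited (-0.69) but did not pass under all 4 scalings. Of 27 nuclear genes of complexes II to V, 12 fell and 2 rose. ATP5MC1, a gene of subunit c of ATP synthase, fell from 225, 60.1, 139 and 125 FPKM to 1.11, 5.31, 7.39 and 4.53 FPKM (-4.65), whereas ATP5MC3, another gene of the same subunit, rose from 15.5, 15.8, 13.4 and 12.6 FPKM to 20.2, 24.4, 28.1 and 25.2 FPKM (0.73). COX7A2 fell (-3.88) and COX8A rose (0.84). The mitochondrial ribosome, which translates the mitochondrial messages, followed the nuclear genes, with 31 falls and 3 rises among 52 genes tested. MRPL37 (-4.17) and MRPL19 (-4.01) fell most, and MRPL44 (1.06) and MRPS24 (0.91) rose.

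Enzymes that act together in mitochondrial metabolism also parted. The trifunctional protein of beta-oxidation, the breakdown of fatty acids, has an alpha subunit encoded by HADHA and a beta subunit encoded by HADHB, which lie side by side on chromosome 3 (chr3:112753343-112797627 and chr3:112712894-112753121). HADHA fell from 23.1, 13.5, 32 and 17.8 FPKM to 1.79, 2.61, 2.01 and 2.40 FPKM (-2.76), while HADHB rose from 40.4, 38, 50.0 and 51.6 FPKM to 85.1, 84.7, 100 and 103 FPKM (1.04). The electron transfer flavoprotein that takes electrons from this pathway has the subunits ETFA and ETFB. ETFA was at 1984, 2493, 1903 and 2572 FPKM and then at 3126, 3238, 3693 and 3563 FPKM, higher as deposited (0.61, limma adjusted p = 0.00433). It did not pass under all 4 scalings, nor 1.5-fold without replicate 1 (0.56) or 3 (0.54) of 22h or replicate 3 of 46h (0.57). Its log2 fold change was larger after median-of-ratios scaling (0.97) and quantile normalization (0.90). ETFB fell from 30.1, 9.73, 19.0 and 13.3 FPKM to 0.41, 0, 0 and 0 FPKM (-4.01). The stages did not overlap for any of these 4 genes. Among the 18 genes of beta-oxidation tested, 3 rose and 6 fell under all 4 scalings, and 7 were higher and 8 lower as deposited, beside 10.8% and 32.4% of all genes. SLC25A20, the carrier of acylcarnitines into mitochondria, was one of the rises (1.04).

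In the TCA cycle 1 of 21 genes tested rose and 8 fell. SUCLG2, the GTP-specific subunit of succinyl-CoA ligase, rose from 88.9, 97.8, 104 and 91.3 FPKM to 207, 166, 204 and 199 FPKM (1.01). MDH1, the cytosolic malate dehydrogenase, fell from 88.8, 59.3, 69.9 and 70.1 FPKM to 2.63, 1.27, 1.37 and 2.38 FPKM (-4.66), and SDHD, a membrane anchor of succinate dehydrogenase, fell from 73.7, 98.7, 69.8 and 100 FPKM to 5.75, 5.74, 4.56 and 5.23 FPKM (-3.76). Of 18 genes of glycolysis and the pentose phosphate pathway, 5 fell and 1 rose. The transaldolase TALDO1 (-2.18) and the transketolase TKT (-1.92), which link both pathways, fell, and the gluconokinase IDNK rose (0.69). Of 13 antioxidant enzymes tested, 2 rose and 4 fell, and the peroxiredoxins, which reduce hydrogen peroxide, were on both sides. PRDX2 rose from 178, 88.9, 247 and 160 FPKM to 292, 325, 387 and 373 FPKM (1.11) and PRDX6 from 4.03, 3.5, 4.97 and 5.96 FPKM to 7.99, 9.21, 11.7 and 13.2 FPKM (1.03). PRDX3, the mitochondrial form, fell from 88.4, 148, 153 and 172 FPKM to 1.65, 2.83, 3.08 and 3.20 FPKM (-5.24), and PRDX5 from 29, 23.6, 31.3 and 20.3 FPKM to 2.38, 2.42, 7.40 and 5.32 FPKM (-2.42). None of the 4 overlapped between the stages. Of 41 metabolic genes that the study draws or names, 36 matched an identifier and 27 were tested, of which 4 were higher, 10 lower and 5 held as deposited, beside 10.8%, 32.4% and 20.5% of all genes. These genes were chosen by the study on the series to which these libraries belong, so their counts are not independent evidence of a direction. ALDH7A1, which oxidises aldehydes of lysine and choline breakdown, fell from 55.1, 36.0, 29.6 and 24.4 FPKM to 3.69, 3.09, 3.94 and 4.31 FPKM (-2.91), and ODC1, the first enzyme of polyamine synthesis, from 349, 248, 223 and 231 FPKM to 133, 97.5, 151 and 91.5 FPKM (-1.15). NADK2, the mitochondrial NAD kinase, rose from 0.81, 1.19, 1.24 and 1.71 FPKM to 2.33, 3.13, 2.52 and 5.10 FPKM (0.90). Of the 9 genes under the filter, the phosphofructokinase PFKM (0.92, 0.37, 0.85 and 0.55 FPKM, then 0.20, 0.19, 0.30 and 0.19 FPKM) and HSD11B1L (0.33, 0.21, 0.51 and 0.53 FPKM, then 0.20, 0.12, 0.15 and 0.08 FPKM) were lower at 46h in every library (p = 0.0286 for each in the exact permutation test, two-sided).

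Of 39 genes of replication licensing, origins and the fork tested, 5 rose and 8 fell, near the shares of all genes (8.37% and 20.2%). Replication factor C loads the sliding clamp onto DNA and has 5 subunits. RFC1 rose from 29.1, 29.4, 30.7 and 24.0 FPKM to 54.6, 51.9, 39.0 and 49.0 FPKM (0.76), and RFC4 from 127, 252, 273 and 319 FPKM to 368, 445, 432 and 422 FPKM (0.85), or 0.57 and under 1.5-fold without replicate 1 of 22h. RFC2 fell from 175, 101, 241 and 196 FPKM to 30.8, 35.8, 35.4 and 32.9 FPKM (-2.30), and RFC3 from 134, 64.3, 134 and 111 FPKM to 5.19, 5.39, 2.77 and 5.82 FPKM (-4.25). RFC5 was at 1.98, 1.01, 1.62 and 2.78 FPKM and then at 0, 0.70, 0.48 and 0.33 FPKM, lower as deposited (-1.04) but not under all 4 scalings. No subunit overlapped between the stages. ORC6, of the origin recognition complex, rose from 290, 380, 288 and 322 FPKM to 621, 509, 649 and 609 FPKM (0.90), and POLE3, a histone-fold subunit of DNA polymerase epsilon, fell from 44.6, 20.5, 21.6 and 19.6 FPKM to 0.33, 0.47, 0 and 0.13 FPKM (-4.41). In the DNA damage response 8 of 48 genes tested rose and 3 fell under all 4 scalings. As deposited 9 were higher and 10 lower, beside 10.8% and 32.4% of all genes. The checkpoint kinase CHEK1 rose from 10.7, 26.9, 31.8 and 35.0 FPKM to 61.9, 70.5, 61.5 and 71.5 FPKM (1.43), and RAD1 from 18.7, 40.4, 61.3 and 61.2 FPKM to 112, 146, 128 and 172 FPKM (1.72). The repair nuclease APEX1 (-2.11) and PARP1 (-1.59) fell.

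Among 47 genes of RNA polymerase II, Mediator and TFIID, 5 rose and 13 fell, beside 8.37% and 20.2% of all genes, and the list median was near that of all genes (-0.02 relative to it). TAF9 rose from 275, 422, 268 and 345 FPKM to 893, 728, 781 and 882 FPKM (1.34) and TAF13 from 18.3, 24.0, 20.6 and 23.4 FPKM to 50.8, 35.6, 40 and 54.3 FPKM (1.02), both subunits of TFIID, which recognises core promoters. The polymerase subunits POLR2H (-3.99) and POLR2G (-2.89) fell. Of 47 spliceosome genes tested, 4 rose and 13 fell, with LSM4 going from 158, 144, 221 and 151 FPKM to 3.96, 5.87, 5.64 and 5.14 FPKM (-4.77) and PRPF38A from 8.45, 4.46, 8.25 and 7.11 FPKM to 13.5, 11.1, 13.2 and 17.4 FPKM (0.89). The stages did not overlap for these genes. Of 38 genes tested in the list of histone-modifying enzymes, 1 rose and 3 fell, and the rise was SIRT4, a sirtuin of mitochondria. As deposited 3 were higher, 11 lower and 14 held, beside 10.8%, 32.4% and 20.5% of all genes. SETDB1, a methyltransferase of histone H3, fell from 77.1, 42.4, 55.4 and 46.2 FPKM to 5.47, 6.75, 4.87 and 4.91 FPKM (-3.09), and HAT1, which acetylates new histone H4, from 720, 732, 625 and 640 FPKM to 132, 98.4, 75.1 and 112 FPKM (-2.72). Of 96 ZNF zinc finger genes tested, 9 rose and 6 fell under all 4 scalings, with a median of 0.00 as deposited. On that scale 10 were higher, 17 lower and 29 held, beside 10.8%, 32.4% and 20.5% of all genes. ZNF567 rose from 14.5, 23.2, 24.0 and 24.7 FPKM to 50.0, 46.1, 68.6 and 81.4 FPKM (1.46), and ZNF277 fell from 91.2, 107, 79.2 and 103 FPKM to 19.0, 14.5, 13.8 and 19.5 FPKM (-2.45).

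Of 35 genes tested of the proteasome, which removes ubiquitin-tagged proteins, 13 fell and 2 rose. PSMC5 (-2.87), of the regulatory ring, and PSMB7 (-2.65), of the catalytic core, fell, while the core subunits PSMB2 rose from 81.8, 87.0, 66.8 and 82.9 FPKM to 156, 140, 163 and 157 FPKM (0.95) and PSMA2 from 232, 231, 155 and 177 FPKM to 338, 290, 328 and 314 FPKM (0.69, or 0.58 and under 1.5-fold without replicate 3 of 22h). Of 21 ubiquitin-conjugating enzymes, 2 rose and 6 fell. The abundant UBE2D3 rose from 3191, 4265, 4456 and 5012 FPKM to 6222, 7833, 7652 and 7649 FPKM (0.81), whereas UBE2T (-3.23) and UBE2A (-3.0) fell. Of 56 chaperones, 18 fell and 4 rose. HSPE1, the co-chaperone of the mitochondrial folding chamber and the most abundant of them, fell from 10096, 7317, 5214 and 4972 FPKM to 2309, 1824, 2061 and 2232 FPKM (-1.66), HSPA5, the main chaperone of the endoplasmic reticulum, fell (-2.69), and CCT8, a subunit of the chaperonin that folds actin and tubulin, rose from 95.9, 158, 139 and 169 FPKM to 324, 337, 335 and 375 FPKM (1.31). No gene named here with its libraries overlapped between the stages.

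The change at 46h was also set against features of the transcripts that the test did not use. Length, GC content and the bases near the 3′ end were taken for 5442 of the named genes (81.9% of the genes tested) from their longest RefSeq transcript in Sscrofa11.1. GC content moved with the change. From the quintile of genes with the lowest GC content to that with the highest, the median log2 fold change went from 0.06 through -0.05, -0.15 and -0.33 to -0.58, the share of genes that fell went from 11.8% to 30.4% and the share that rose from 16% to 2.85%. Short transcripts fell more often, with 37.1% of the shortest quintile and 10% of the longest, and rose somewhat more often, with 9.64% and 6.89%. They were also more abundant, with a median of 24.9 FPKM at 0h in the shortest quintile and 4.87 FPKM in the longest. Across genes, Spearman's rho with the log2 fold change was -0.27 for GC content and 0.15 for length, given as a description, since genes are not independent replicates. Calls in both directions were more frequent among abundant transcripts. From the quintile of the lowest levels at 0h to the highest, the share that fell went from 3.76% to 34.8% and the share that rose from 4.96% to 13.9%, with a median of -0.05 in the lowest and -0.25 to -0.30 in the others, but a transcript near the filter cannot fall far on this scale. Of the 13 lists with at least 10 genes in the shortest quintile, 9 had a lower median there than the other genes of the quintile and 4 a higher one. Of the 25 genes of complex I, 23 lie in the shortest quintile, and their median was -1.98 beside -0.51 for the other 1066 genes there. The same pair of values was -1.47 and -0.50 for 37 genes of the mitochondrial ribosome, -2.14 and -0.51 for the small and -1.97 and -0.51 for the large ribosomal subunit, whereas it was 0.78 and -0.55 for the mitochondrially encoded genes, -0.02 and -0.55 for RNA polymerase II, Mediator and TFIID, and -0.59 and -0.53 for the proteasome. How far GC content and length bear on single genes was not tested.

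The cytoplasmic polyadenylation element was sought as TTTTAT on the transcript strand in the last 100 bases of the 5107 transcripts with a 3′ UTR of at least that length. Its letters cannot overlap those of the polyadenylation signal AATAAA. It was present in 17.9% of them, beside 13.2% of all 17410 annotated transcripts with such a UTR. Other forms of the element were not searched, so genes counted as without it may hold one. The 912 genes with the element had a median log2 fold change of -0.10, 14.3% fell and 9.65% rose. The 4195 genes without it had a median of -0.21, 19.4% fell and 8.06% rose. The difference of 0.11 between the medians is small beside that between the GC quintiles. Within the lowest, middle and highest of 3 classes of GC content the medians with and without the element were 0.06 and 0.00, -0.01 and -0.16, and -0.31 and -0.51. Where AATAAA lay in the last 40 bases, they were -0.05 and -0.17.

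To show what these ends look like, 30 bases that end in AATAAA are given for 4 genes that rose and hold the element in this window and for 4 of the largest falls without it, all chosen after their values were seen. They are from RefSeq (Sscrofa11.1), 5′ to 3′ on the transcript strand, and capitals mark TTTTAT and AATAAA. The genes that rose lie at chr14:124144290-124144319 (DCLRE1A, minus strand), chr16:47494861-47494890 (TAF9, minus), chr14:40303839-40303868 (SIRT4, plus) and chr6:45709679-45709708 (ZNF567, minus), and those that fell at chr14:64255239-64255268 (CDK1, plus), chr6:42491543-42491572 (PDCD5, plus), chr1:99993442-99993471 (SKA1, plus) and chr14:129079064-129079093 (PRDX3, minus).
DCLRE1A: aacTTTTATatgatatatatactaAATAAA
TAF9: TTTTATcagcctttaagtgtaaaaAATAAA
SIRT4: taatgaattTTTTATtaacaaaggAATAAA
ZNF567: tttgtacTTTTATaattttgtgttAATAAA
CDK1: ttcaatgtggctaatggcaaaaaaAATAAA
PDCD5: aaagttgttctagtaccatagctaAATAAA
SKA1: tgtaagaaAATAAAacttaaaaaaAATAAA
PRDX3: ctcaatgtaaaaaatatgataaaaAATAAA
SIRT4, a mitochondrial sirtuin, rose from 3.09, 4.24, 4.21 and 5.88 FPKM to 8.18, 9.07, 8.91 and 8.98 FPKM (0.89), and the values of the other 7 genes are given above or, for PDCD5, were 1413, 1015, 901 and 735 FPKM and then 5.60, 13.4, 10.6 and 6.91 FPKM. A match of letters describes a transcript end and is not a functional site. The contrast shown was made by the choice of genes, since most other named genes that rose lack TTTTAT in such a window. Other genes ran otherwise, as CCNB1 rose without TTTTAT in its last 100 bases and FBXO5, which fell, holds it there.

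**Figure D5:**
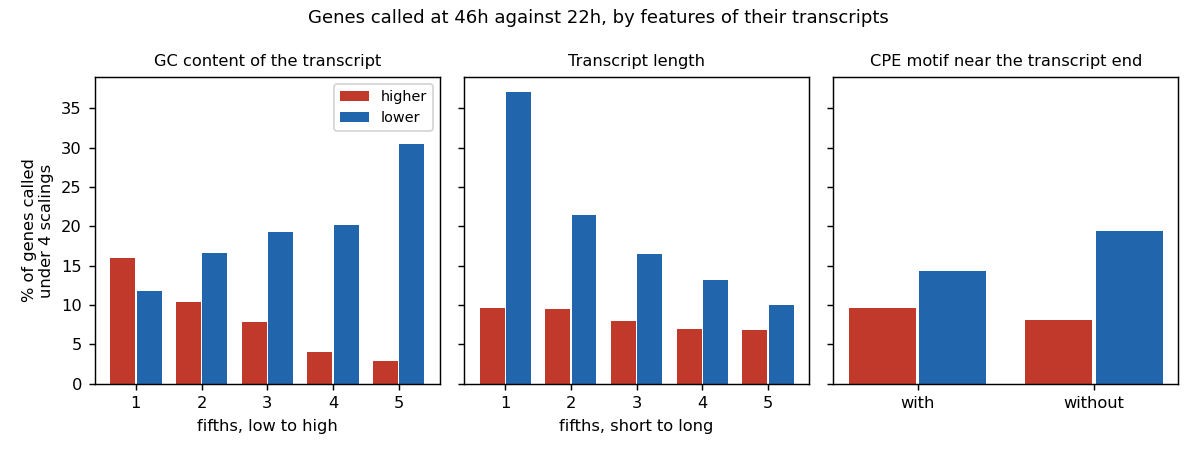
Share of genes higher (red) and lower (blue) at 46h under 4 scalings, in percent (vertical axis), by quintile of GC content (from low to high), by quintile of transcript length (from short to long) and by the presence of the cytoplasmic polyadenylation element (CPE) in the last 100 bases. The share that fell goes from 11.8% to 30.4% across GC quintiles and from 37.1% to 10% across length quintiles, and is 14.3% with and 19.4% without the element.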

How the data were processed

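RNA was measured in 12 libraries of pig oocytes, of which 4 were from 0h, 4 from 22h and 4 from 46h of culture, made with SMART-Seq2 from pools of oocytes. Per the labels and the submitters' processing notes, the authors used FastQC, Trim Galore, STAR, HTSeq and RSEM. The genome was Sscrofa11, and the annotation release is not given in the sources used here. The authors deposited FPKM per gene identifier in 1 table per library, and these FPKM values are the sole measurement used. FPKM is relative to each library, no read counts were used, and the depth of each library is unknown, so no counting error can be given and precision rests on the 4 libraries per stage. SMART-Seq2 carries no molecular identifiers and amplifies from the poly(A) tail.

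Values were analysed as log2(FPKM + 1) with limma 3.58.1 (R 4.3.3) in a linear model with stage as the only factor over the 8 libraries of 22h and 46h, with an intensity trend in the moderated variance and Benjamini-Hochberg adjustment over the 6641 genes that averaged 1 FPKM or more, which hold 99.6% to 99.9% of total FPKM. Tests were two-sided. A gene passed at an adjusted p under 0.05 and a fold change over 1.5, and was held where its 95% interval lay inside 1.5-fold. Genes under the filter were tested by the exact permutation test over the 70 arrangements of 4 against 4. The members and lists were chosen with earlier results of these data known. The 50 lists were written by hand, received no test and are described by counts and medians. Candidates for naming were set by rule: the 15 largest rises and falls among those past under the 4 scalings, up to 2 rises and 2 falls and the most abundant member of each list, the 10 most abundant genes of each stage, genes the study draws and up to 5 genes listed at 0. Not every candidate is described. Several of the most abundant genes were left out, among them some that were held as deposited, so the genes described lean towards those that changed. Genes that complete a complex (NUF2, SKA2, SKA3, RFC1, RFC2, RFC5, ND1, ND4, ND6, ATP8), regulators (MASTL, ENSA, CDC25B, CKS2, AURKB, ESPL1, CNOT7), ZP2, ARMC1, CD3E and the genes whose sequences are shown were chosen after their values were seen. No value is given for 5 genes of the study that matched no name.

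Identifiers carried no symbols, and names were matched for 15029 of the 31908 from RefSeq Sscrofa11.1, which also gave transcript features and sequences (Python 3.11.15 with pysam 0.24.0, pandas 2.3.3, numpy 2.4.6, matplotlib 3.10.9 and scipy 1.17.1). On simulated data for the 6641 genes the comparison of 46h against 22h recovered 172 of 200 changed genes. These were 75 of 100 with a log2 change of 1 and 97 of 100 with a change of 2. There were 0 wrong directions and 6 false calls. It made 0 calls where nothing had been changed, and the 95% intervals held the true value for 94.7% of genes. The 200 changed genes are few beside the 2873 that passed in the libraries. How the scaling of the libraries bears on false calls was not tested. Alternatives were a pseudocount of 0.1, no filter, a mean of at least 5 FPKM, TPM with and without the mitochondrially encoded genes, median-of-ratios scaling, quantile normalization, all 12 libraries in the model, no intensity trend, the replicate number as a block, a fold change over 2, leaving out 1 of the 8 libraries at a time, and for the polyadenylation element the last 200 bases.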

Additional observations from a re-analysis of the deposited data

Results flagged for a closer look

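In 20 of 384 groups of 4 libraries tested, over the genes named and 4 measures of the libraries, 1 library stood further from the other 3 than the 95% limit of Dixon's test of the gap to the nearest library. Chance gives about 1 in 20 such groups, which is 19.2 of 384. At 22h the library was replicate 1 for BUB3 (41.8 FPKM, the others at 50.7 to 51.2), CDC26 (75.5, others 33.7 to 40.3), CNIH4 (513, others 284 to 295), POLE3 (44.6, others 19.6 to 21.6) and ZNF567 (14.5, others 23.2 to 24.7), replicate 2 for ATP8 (3628 FPKM, the others listed at 0), and replicate 3 for EIF3H (393, others 367 to 370), ENSA (12.9, others 8.09 to 8.48) and TAGLN (21.6, others 12.3 to 13.9). At 46h it was replicate 1 for ETFB (0.41 FPKM, the others listed at 0), SLC25A20 (7.84, others 12.4 to 12.9) and UBE2D3 (6222, others 7649 to 7833), replicate 2 for ZWILCH (151, others 107 to 113), and replicate 3 for ANAPC15 (104, others 55.4 to 63.3), ASTL (0.18, others 0.1 to 0.11), COX8A (832, others 594 to 605), PFKM (0.3, others 0.19 to 0.2), VCAN (105, others 130 to 136), ZFP36L2 (0.33, others 0.14 to 0.16) and ZP3 (199, others 51.5 to 71.7). Leaving that library out ended no limma call among these genes, and ATP8, which did not pass, rests on its 1 library.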

How the results depend on the processing

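Depth is unknown, so no counting error can be given and a value of 0 has no known floor. FPKM is relative to each library, and the split of rises and falls followed the scaling. The scale log2(FPKM + 1) understates changes of low genes. No source says whether the libraries of a stage were separate cultures.

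No gene that passed was called in the opposite direction under any alternative. Of 179 named genes that passed, 165 kept direction and call throughout, and 29 of 3210 values lost the call. The 2873 genes past the thresholds (43.3%) were 1832 with a mean of at least 5 FPKM and 1672 at a fold change over 2. The filter at 5 FPKM left 3878 genes tested, of which 47.2% passed, so its lower counts here and below come with fewer genes tested. The 719 higher were 1456 with median-of-ratios scaling, 2013 with quantile normalization and 199 at over 2-fold, and the 2154 lower were 1212 with a mean of at least 5 FPKM and 1365 with quantile normalization. The share of rises, 25%, was 46.8% after median-of-ratios scaling, 59.6% after quantile normalization and 11.9% at over 2-fold. The 1362 held genes were 738 with a pseudocount of 0.1, 9782 of 16443 tested without a filter and 674 with a mean of at least 5 FPKM. The genes past under 4 scalings were 1062 at over 2-fold, with 148 higher, and the lower ones were 838 with a mean of at least 5 FPKM. Of the study's genes under the filter, 2 were past the exact test, or 1 with median-of-ratios scaling. With 1 library left out the exact test cannot reach 0.05. Leaving out 1 library gave 2694 to 2925 genes past (623 to 741 higher, 2063 to 2201 lower), 22.8% to 26.1% rises, 1774 to 1952 past under 4 scalings (471 to 635 higher, 1303 to 1381 lower) and 1028 to 1412 held. Among genes that did not pass, ARMC1 (-0.10) was 0.25 after median-of-ratios scaling and 0.07 after quantile normalization, AURKB (0.07) was -0.02 as TPM, 0.42 and 0.44 with the same 2 scalings and -0.09 to 0.17 with 1 library left out, ATP8 (-2.96) was -3.94 to 0.00 with 1 library left out, and NUF2 (0.34), PECAM1 (0.60) and NLRP9 (0.55) passed after median-of-ratios scaling (0.70, 0.93 and 0.90). For the lists, 18 of 899 medians relative to all genes moved by more than the spread between replicates. The difference by polyadenylation element, 0.11, was 0.10 to 0.16 over its alternatives and 0.15 with the last 200 bases.

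The correlations of same-numbered deviations were 0.392, 0.014, 0.221 and 0.128, so not every pair exceeded 0.1 and the samples were taken to share only a number. Replicates 1, 3 and 4 of 22h correlated best with their own number and replicate 2 with replicate 1 of 46h (0.180), which is a hint from the data and not from the design. With the replicate block 2955 genes passed, 750 higher and 2205 lower, 1962 passed under 4 scalings and 1625 were held.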

Other observations

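Signalling and transport genes showed further changes between 22h and 46h. They are read beside the 8.37% of all genes that rose, the 20.2% that fell and the 20.5% held as deposited. Protein kinase A holds the oocyte in its first arrest through cAMP, and of 12 genes of this pathway tested 1 rose, 0 fell and 5 were held as deposited. The rise was AKAP11, an anchor of that kinase, from 6.36, 7.18, 6.41 and 5.07 FPKM to 14.9, 12.8, 7.58 and 11.5 FPKM (log2 fold change 0.78). Of 13 genes of calcium release and entry, which fertilization will use, 0 rose, 3 fell and 5 were held. CALM3, 1 of the calmodulin genes, fell from 74.8, 37.5, 62.4 and 63.5 FPKM to 3.72, 2.74, 3.15 and 1.14 FPKM (-4.05), and CALR, the calcium-binding chaperone calreticulin, fell too (-1.77). Actin moves the spindle to the cortex, and 6 of 22 genes of this machinery fell and 0 rose, among them MYL6 and the ARP2/3 subunit ARPC3, which went from 78.3, 21.9, 57.9 and 41.0 FPKM to 4.29, 5.34, 5.83 and 7.08 FPKM (-2.81). Of 23 RAB GTPases of vesicle traffic, 6 fell and 0 rose, with RAB9A (-2.47) and RAB30 (-1.79) lowest. Of 24 genes of core autophagy 1 rose and 4 fell. MAP1LC3B, which coats the forming vesicle, fell from 318, 265, 221 and 221 FPKM to 20.6, 13.4, 25 and 25.2 FPKM (-3.57) and ATG16L1 fell (-2.65), while ATG12, a ubiquitin-like protein that joins the same conjugation complex, rose from 13.8, 21.8, 24.1 and 27.6 FPKM to 40.3, 42.2, 39.4 and 47.4 FPKM (0.96). The stages did not overlap for any gene named here with its libraries, beside 930 genes above and 2254 below without overlap among all 6641.

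Among 46 genes of the nuclear pore and nuclear transport, 6 rose and 9 fell, near the shares of all genes. XPO1, the main export receptor, fell from 33.9, 25.6, 22.4 and 22.3 FPKM to 1.85, 1.13, 1.22 and 1.51 FPKM (-3.47), whereas TNPO1, an import receptor, rose from 13.6, 19.2, 13.7 and 12.5 FPKM to 37.7, 39.8, 23.1 and 55.6 FPKM (1.3) and the pore protein NUP88 rose (1.45). Of 15 histone chaperones, RBBP7 rose from 184, 484, 658 and 668 FPKM to 888, 1018, 1131 and 1193 FPKM (1.24) and ASF1A fell from 98.0, 114, 126 and 151 FPKM to 34.2, 36.5, 30.9 and 40.7 FPKM (-1.74). SLC25A31, an ADP/ATP carrier of germ cells, rose from 9.74, 20.2, 20.8 and 26.1 FPKM to 36.5, 51.3, 50.7 and 47.4 FPKM (1.3), and SLC25A17, a carrier of peroxisomes, fell from 460, 390, 505 and 486 FPKM to 35.1, 50.4, 44.6 and 42.0 FPKM (-3.39), in a list of 20 carriers with 3 rises and 5 falls. In purine and pyrimidine metabolism 2 of 29 genes rose and 8 fell, with GMPS, which makes GMP, at 46.5, 27.7, 40.4 and 35.0 FPKM and then at 3.90, 2.82, 3.10 and 3.10 FPKM (-3.16). Of 15 genes of one-carbon metabolism 0 rose and 2 fell under all 4 scalings, CTH (-2.15) and GCLC (-1.23), both on the way from methionine to glutathione, and 1 was higher and 6 lower as deposited, beside 10.8% and 32.4% of all genes. Of 31 deubiquitinases 2 rose and 2 fell, with USP33 (0.85) and USP39 (-1.96) at the ends, and of 15 small RNA genes TDRD5 rose (0.67, or 0.51 and under 1.5-fold without replicate 1 of 22h) and ASZ1 fell (-1.25), both proteins of the piRNA pathway of germ cells.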
